A study of Homo sapiens with 12 samples.

Results

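TLE1, TLE2, TLE4 and AES are the genes of Groucho family corepressors described here, taken by symbol from the 57905 gene rows of single-cell RNA-seq of Nalm-6 cells. The rule named 4 genes, and all 4 reached 10 CPM (the usual scaled share of a gene in all UMIs of the summed cells) in at least 1 library. TLE2 reached that level only in the library labelled RUNX1. TLE6 and TLE3, the other family members in the annotation used for counting, are given beside them where they help to read the values.

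Nalm-6 is a cell line from a human leukemia of B cell precursors, and the comparison asked which transcripts change when RUNX1, a DNA-binding regulator of blood cell formation, is induced in it. The library labelled RUNX1 came from cells with an inducible RUNX1 cDNA given 500 ng/ml doxycycline, and the control carries the genotype label of an empty vector, both at 72 h. The title of the control names DMSO and its own labels name no inducer, and the methods of the study describe DMSO-treated parental Nalm-6 cells kept for a shorter time, so the vector, the inducer and the time of culture cannot be told apart from the RUNX1 label. There was 1 library per group and hence no test between the conditions: all intervals are 95% intervals that cover counting error only, and none covers variation between cultures.

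The files held 5491 barcodes for the library labelled RUNX1 and 6073 for the control, of which 4800 in the library labelled RUNX1 and 5598 control barcodes passed the cell filter; 10 passing barcodes were shared by both. The passing cells summed to 75350615 UMIs (molecules counted once) in the library labelled RUNX1, with a median of 14805 UMIs per cell, and to 75754137 UMIs in the control, with a median of 12505.5. The mitochondrial share of UMIs was 13.1% for the library labelled RUNX1 and 9.45% for the control. All 10 measured B precursor markers were at 10 CPM or more in both libraries, whereas the 7 T cell markers summed to 9.58 CPM in the library labelled RUNX1 and 7.63 CPM in the control, nearly all of it TRAC, with CD3D, CD3G, CD5 and CD7 at 0 in both. The 6 myeloid markers summed to 1.80 CPM in the library labelled RUNX1 and 2.28 CPM in the control. RUNX1 itself went against the label: 2288 UMIs (30.4 CPM) in the library labelled RUNX1, against 5282 UMIs (69.7 CPM) in the control, a log2 ratio of -1.20 (-1.27 to -1.13). The induced transcript comes from a cDNA, and whether the assay, which reads the end of a transcript next to its poly(A) tail, counted it was not tested, nor was whether the libraries match their labels. Every ratio between the libraries below takes its direction from those labels.

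Groucho and TLE proteins do not bind DNA themselves. They are brought to genes by transcription factors such as RUNX, PAX5, TCF/LEF and HES proteins, join into oligomers, and recruit histone deacetylases that silence the target. TLE1, TLE2 and TLE4 are full-length members with a carboxy-terminal WD40 domain that holds the partner, whereas AES (TLE5 in newer annotation) is a short member that lacks this domain and can act against the full-length proteins. In B cells, PAX5 uses these corepressors to keep genes of other lineages off, and RUNX1 carries at its end a short motif that TLE proteins bind.

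The 4 genes lie on 2 chromosomes (GRCh37). TLE1 (ENSG00000196781) lies on the minus strand of chromosome 9, 84198598 to 84304462, and TLE4 (ENSG00000106829) on the plus strand of chromosome 9, 82186688 to 82341797, 1856801 bases before it. TLE2 (ENSG00000065717; 2997637 to 3047633) and AES (ENSG00000104964; 3052908 to 3063105) are neighbours on the minus strand of chromosome 19, 5275 bases apart, and TLE6 (2977536 to 2995177) lies on the plus strand 2460 bases from TLE2. AES overlaps 1 gene of the other strand in the files, and TLE1, TLE2 and TLE4 overlap none.

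Bases before the transcription starts of TLE1 and TLE4 are shown because these genes had the largest ratios between the libraries in opposite directions, and because RUNX1 is a DNA-binding protein with a short known motif. The sequences are from RefSeq (promoter table on GRCh38.p14) and were placed on GRCh37 by exact match. The letters TGTGGT and TGCGGT, typical of RUNX sites, were searched in the 250 bases before each start on both strands (ACCACA and ACCGCA on the other), and matches are in capitals.
TLE1, chr9:84304463-84304712, minus strand: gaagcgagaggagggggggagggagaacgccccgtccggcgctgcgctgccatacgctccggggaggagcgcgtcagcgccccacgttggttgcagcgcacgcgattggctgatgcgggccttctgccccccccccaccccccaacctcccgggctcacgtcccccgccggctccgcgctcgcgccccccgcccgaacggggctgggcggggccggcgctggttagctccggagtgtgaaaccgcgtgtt
TLE4, upstream start, chr9:82186630-82186687, plus strand: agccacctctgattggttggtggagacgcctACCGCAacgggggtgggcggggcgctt
TLE4, downstream start, chr9:82187842-82188087, plus strand: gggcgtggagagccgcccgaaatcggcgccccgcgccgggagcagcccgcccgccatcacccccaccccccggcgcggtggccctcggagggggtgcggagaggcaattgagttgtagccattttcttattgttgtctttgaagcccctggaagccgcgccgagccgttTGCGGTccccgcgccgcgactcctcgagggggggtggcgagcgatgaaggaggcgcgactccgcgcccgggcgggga
The TLE4 stretches stop where annotated exons begin. The match began 219 bases before the upstream start of TLE4 and 81 bases before its downstream start. The windows of TLE1 (1 start), TLE2 (2 starts) and AES (2 starts) held no match, so 2 of the 7 windows of the 4 genes had these letters, against 16.3% of all 35116 promoters in the table. A match is a stretch of letters, not a site shown to be bound, and binding data from ChIP-seq (10 samples) were not used here.

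TLE1 and TLE2 transcripts were higher in the library labelled RUNX1, TLE4 was lower and AES was nearly level. TLE1 had 3277 UMIs (43.5 CPM) in the library labelled RUNX1, against 1117 UMIs (14.7 CPM) in the control, a 2.95-fold difference (log2 ratio 1.56, 1.46 to 1.66). Among the 7980 genes measured, 191 had a higher ratio. TLE2 had 1086 UMIs (14.4 CPM) in the library labelled RUNX1, against 509 UMIs (6.72 CPM) in the control, a log2 ratio of 1.10 (0.95 to 1.26).

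TLE4, a corepressor known as a partner of PAX5, went the other way. It had 10318 UMIs (137 CPM) in the library labelled RUNX1, against 19375 UMIs (256 CPM) in the control, a log2 ratio of -0.90 (-0.94 to -0.87), and 462 of the 7980 genes had a lower ratio. AES had 16103 UMIs (214 CPM) in the library labelled RUNX1, against 14889 UMIs (197 CPM) in the control, a log2 ratio of 0.12 (0.09 to 0.15) that turned to -0.0070 with TMM scaling. Of the 4 genes, 2 were 2-fold or more higher and 0 were 2-fold or more lower. Of all measured genes, 5.18% were that much higher and 4.10% that much lower. TLE2 was measured only through the library labelled RUNX1, where it was higher, which favours its count as higher. The ratios of the 4 genes stand against an all-gene median of -0.13. TMM scaling, which lowered that median to -0.26, put TLE2 at 0.97 and TLE4 at -1.03.

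Because the full-length proteins share partners, the transcripts of TLE1, TLE2 and TLE4 were also summed. TLE3, a full-length member listed at 0 UMIs in both libraries, is not part of this full-length sum. It overlaps 1 other counted gene of its own strand, MIR629, and whether its 0 is a loss in counting was not tested. UMIs of a 3' assay are not scaled by length and capture can differ by gene, so the shares below compare libraries and not genes. TLE1, TLE2 and TLE4 together had 195 CPM in the library labelled RUNX1 and 277 CPM in the control, a log2 ratio of -0.51 (-0.54 to -0.48). TLE1 made up 22.3% (21.6 to 23.0%) of this sum in the library labelled RUNX1, against 5.32% (5.02 to 5.63%) in the control. TLE4 made up 70.3% (69.5 to 71.0%) in the library labelled RUNX1, against 92.3% (91.9 to 92.6%) in the control. These values pool cells of different cell cycle states, described next, and the sum differed by more within a state: its log2 ratio was -0.84 (-0.91 to -0.76) in cells called G1 and -0.80 (-0.85 to -0.76) in cells called S or G2/M. TLE1 made up 30.2% of the sum in cells called G1 of the library labelled RUNX1, against 4.86% in those of the control, and in S or G2/M it made up 11.6% for the library labelled RUNX1, compared with 5.36% for the control. The sum of TLE1, TLE2 and TLE4 was thus lower in the library labelled RUNX1, and TLE1 a larger share of it, in both states. Over all cells, AES UMIs were set against each UMI of this sum, which lacks TLE3. There were 1.10 (1.07 to 1.12) in the library labelled RUNX1 and 0.709 (0.694 to 0.724) in the control.

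The libraries differed in cell cycle state, and the TLE ratios moved with it. Phase was called from S and G2/M genes over both libraries together, and 59.4% (58.0 to 60.8%) of cells were called G1 in the library labelled RUNX1 against 6.45% (5.82 to 7.12%) in the control, that is 2850 of 4800 cells of the library labelled RUNX1 and 361 of 5598 control cells. A call is a threshold on a score: 224 cells of the library labelled RUNX1 and 195 control cells lay within 0.05 of it. Cells called G1 held a median of 11472.5 UMIs for the library labelled RUNX1, compared with 10067 for the control, and cells called S or G2/M 19998.5 UMIs for the library labelled RUNX1, compared with 12705 for the control.

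Within the library labelled RUNX1, TLE1 was concentrated in cells called G1. It was at 73.0 CPM (70.2 to 75.8) in those cells and at 17.9 CPM (16.6 to 19.3) in cells called S or G2/M, a log2 ratio of 2.03 (1.91 to 2.15), where 6.12% of all genes were 2-fold or more higher in cells called G1. In the control, TLE1 was at 21.0 CPM (16.7 to 26.1) in cells called G1 and at 14.4 CPM (13.5 to 15.3) in the others, a log2 ratio of 0.54 (0.20 to 0.87), with 0.552% of all genes at least 2-fold higher. Of the 4 genes TLE1 alone was past 2-fold between states, in the library labelled RUNX1, and 0 were that much lower in cells called G1, where 6.40% of all genes were lower in the library labelled RUNX1 and 5.27% in control cells.

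**Figure D1:**
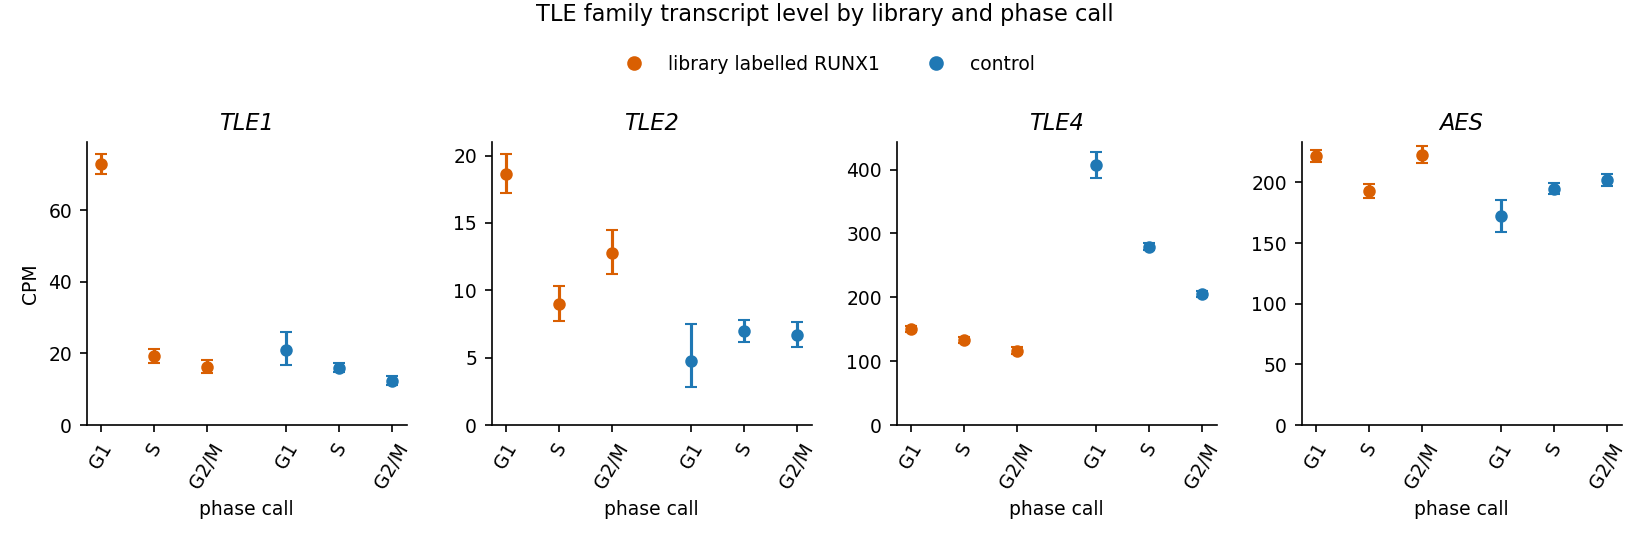
CPM (vertical axis, from 0, own scale in each panel) of the 4 genes by phase call (horizontal axis), orange for the library labelled RUNX1 and blue for the control; points are sums over the cells of a group and bars exact Poisson 95% intervals. TLE1 is high at 73.0 CPM in G1 of the library labelled RUNX1 alone, whereas TLE4 is highest in G1 of the control at 406 CPM and lower in each phase of the library labelled RUNX1.

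Ordered by level over the 6 groups of library and phase, TLE1 was highest in G1 of the library labelled RUNX1. The next was 21.0 CPM in G1 of the control, followed by 19.2 CPM in S and 16.4 CPM in G2/M of the library labelled RUNX1. It was 16.0 CPM in S and 12.3 CPM in G2/M of the control. Apart from the highest and the lowest group, the intervals of neighbours in this order overlapped. In cells called G1 the log2 ratio of TLE1 between libraries was 1.80 (1.48 to 2.14), where 9.89% of genes were 2-fold or more higher. In cells called S or G2/M it was 0.31 (0.17 to 0.45), where 1.70% were. With the phases of the library labelled RUNX1 weighted to the mix of the control, an alternative added after seeing the data, it was 0.49.

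TLE2 was likewise highest in G1 of the library labelled RUNX1. It was at 18.6 CPM (17.2 to 20.1) in G1, 12.8 CPM (11.2 to 14.5) in G2/M and 8.97 CPM (7.75 to 10.3) in S of the library labelled RUNX1, whereas in the control it was at 6.94 CPM (6.16 to 7.80) in S, 6.66 CPM (5.78 to 7.64) in G2/M and 4.73 CPM (2.80 to 7.47) in G1. The control value in G1 rests on 18 UMIs, and the control groups overlapped each other and, in S, the lowest group of the library labelled RUNX1. The log2 ratio between libraries was 1.98 (1.31 to 2.74) in cells called G1 and 0.65 (0.46 to 0.84) in cells called S or G2/M.

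TLE4 was lower in the library labelled RUNX1 in every phase. It was at 150.3 CPM in G1, 133 CPM in S and 117 CPM in G2/M of the library labelled RUNX1, against 406 CPM in G1, 279 CPM in S and 205 CPM in G2/M of the control. No intervals overlapped, and the lowest control phase was above the highest of the library labelled RUNX1. The log2 ratio was -1.44 (-1.52 to -1.35) in cells called G1 and -0.98 (-1.03 to -0.94) in cells called S or G2/M, so cells called G1 were past 2-fold and the whole libraries were not. At least 2-fold lower were 6.07% of all genes in cells called G1 and 1.48% in cells called S or G2/M. Within each library TLE4 was higher in cells called G1, by a log2 ratio of 0.26 (0.21 to 0.32) in the library labelled RUNX1 and 0.71 (0.64 to 0.79) in the control.

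AES, the short member, had the ratio nearest to 0. Its levels were 223 CPM in G2/M, 222 CPM in G1 and 193 CPM in S of the library labelled RUNX1, against 202 CPM in G2/M, 195 CPM in S and 172 CPM in G1 of the control. G2/M and G1 of the library labelled RUNX1 had overlapping intervals. S of that library overlapped both S and G2/M of the control, which also overlapped each other. The log2 ratio was 0.37 (0.25 to 0.48) in cells called G1 and 0.06 (0.03 to 0.10) in cells called S or G2/M.

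A phase call rests on a threshold, so each library was also divided into 4 bins of equal cell number by the share of UMIs from the phase genes, lowest first. TLE1 was at 78.3, 74.2, 31.8 and 15.6 CPM in the bins of the library labelled RUNX1, against 18.3, 13.8, 15.5 and 12.3 CPM in those of the control. TLE1 was thus lower in the upper bins of the library labelled RUNX1, and the control bins differed less. TLE4 was at 135, 162, 138 and 123 CPM in the bins of the library labelled RUNX1, against 329, 254, 231 and 227 CPM in the control. The bins cover different ranges in each library: the first reached 0.156% of UMIs from phase genes for the library labelled RUNX1, compared with 0.800% for the control, so bins of the same rank are not alike.

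UMIs per cell give the share of cells with a UMI and how many each held. At low counts both follow the mean level, so they cannot show whether more cells held a gene or cells held more. Each cell was thinned to 8000 UMIs, which left 4188 cells of the library labelled RUNX1 (612 shallower cells were dropped) and 5185 of the control (413 dropped). In the library labelled RUNX1, 2259 of 2850 cells called G1 and 1929 of 1950 called S or G2/M were left. In the control, 314 of 361 called G1 and 4871 of 5237 called S or G2/M were left. Values over all thinned cells thus give cells called G1 of the library labelled RUNX1 less weight. TLE1 was then seen in 26.2% (24.9 to 27.6%) of cells of the library labelled RUNX1 and in 11.0% (10.2 to 11.9%) of control cells, or, without thinning, in 42.1% of cells of the library labelled RUNX1 and 17.7% of control cells. In cells called G1 the shares were 38.0% (36.0 to 40.0%) in the library labelled RUNX1 and 15.9% (12.1 to 20.4%) in the control. Of cells called S or G2/M, 12.5% (11.0 to 14.1%) in the library labelled RUNX1 and 10.7% (9.86 to 11.6%) in the control had a TLE1 UMI, and these intervals overlapped.

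TLE1 was unevenly spread over the cells of the library labelled RUNX1. The variance of its UMIs per cell was 1.57 times the mean there, against 1.05 in the control, where a value of 1 is what counting alone gives. With 3 or more TLE1 UMIs there were 100 thinned cells in the library labelled RUNX1, 96 of them called G1, and 3 in the control. For TLE4 the variance was 1.57 times the mean in cells called G1 of the library labelled RUNX1, against 2.23 times in those of the control.

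TLE4 was seen in most cells of both libraries, but in a smaller share of cells and with fewer UMIs per cell in the library labelled RUNX1. It had a UMI in 60.9% (59.4 to 62.4%) of thinned cells of the library labelled RUNX1 and 81.5% (80.4 to 82.6%) of control cells, or, without thinning, in 79.1% of cells of the library labelled RUNX1 and 91.3% of control cells. With 3 or more UMIs the shares were 12.0% (11.1 to 13.1%) in the library labelled RUNX1 and 34.0% (32.7 to 35.3%) in the control. TLE2 was seen in 11.3% (10.4 to 12.3%) of cells of the library labelled RUNX1 and 5.07% (4.49 to 5.71%) of control cells, or 19.6% for the library labelled RUNX1, compared with 8.40% for the control without thinning. AES was seen in 81.1% (79.9 to 82.3%) of cells of the library labelled RUNX1 and 78.6% (77.4 to 79.7%) of control cells, or without thinning 92.8% for the library labelled RUNX1, compared with 89.6% for the control. The share of cells was thus higher in the library labelled RUNX1 for both genes, by less for AES. The files hold no cell type that should lack these genes, so the share that free RNA alone would give was not measured.

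**Figure D2:**
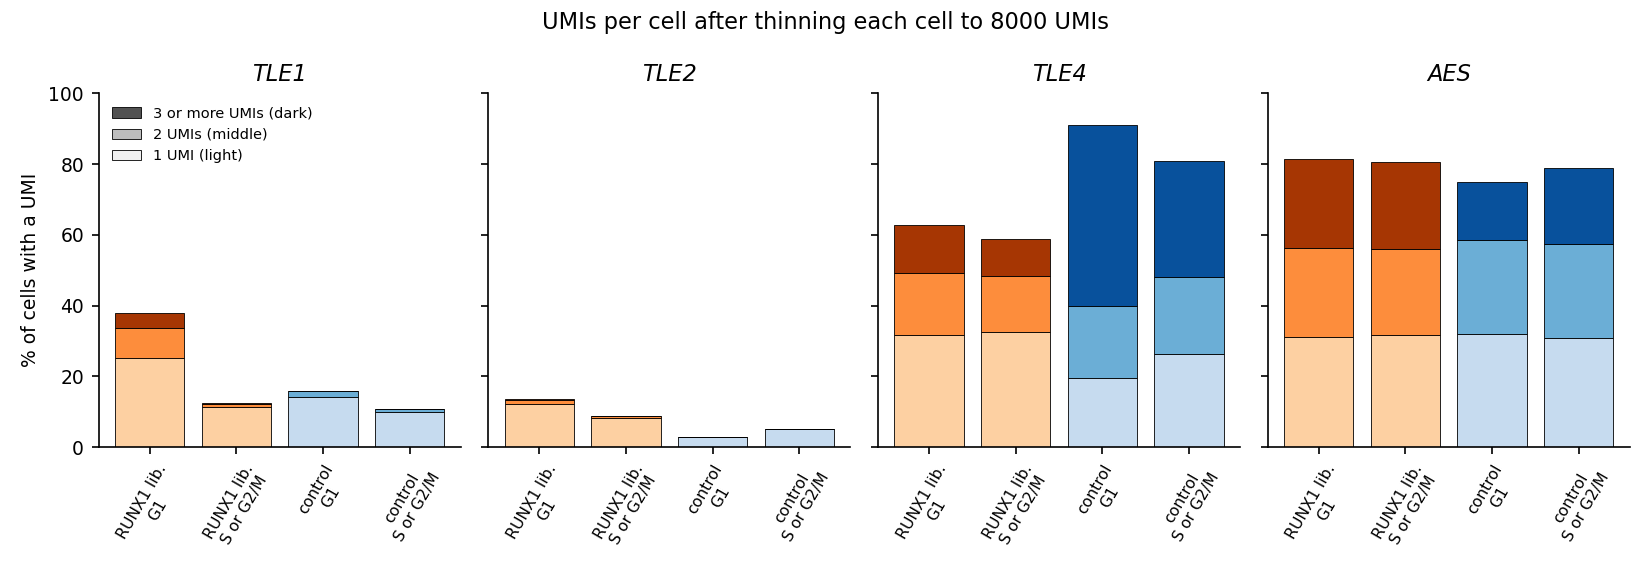
Share of cells (vertical axis, % of cells) with 1 (light), 2 (middle) and 3 or more (dark) UMIs of each gene after thinning to 8000 UMIs, by library and state (horizontal axis), orange for the library labelled RUNX1 and blue for the control. TLE1 is seen in 38.0% of cells called G1 of the library labelled RUNX1, against 15.9% in control cells, and cells with 3 or more TLE4 UMIs are more frequent in the control.

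Cells called G1 in the library labelled RUNX1 were then divided by UMIs of genes nearly absent from the control. The dividing genes were picked with earlier results of these data known, and the values are a description. The 389 cells with a UMI of C1orf141 or LINC00967 held TLE1 at 176 CPM (163 to 189). The 1233 other cells with a UMI of the chemokine genes CCL3 or CCL4 held it at 73.7 CPM (69.3 to 78.4), and the 562 cells with FCER1G but no chemokine UMI at 62.5 CPM (56.6 to 68.9). The 666 cells with none of these were at 37.9 CPM (34.3 to 41.8), still above the 21.0 CPM of control cells called G1. Within 1 phase call, TLE1 thus differed between subsets by more than counting error.

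The other genes moved less between these subsets. In the same order, TLE2 was at 25.8, 23.1, 17.9 and 10.5 CPM and AES at 295, 223, 224 and 190 CPM. TLE4 was at 203 CPM (190 to 217) in the C1orf141 or LINC00967 cells, 123 CPM in the chemokine cells, 137 CPM in the FCER1G cells and 173 CPM in the cells with none, each far under the 406 CPM of control cells called G1. RUNX1 ranged only between 27.4 and 34.7 CPM. Median depth was 9570 UMIs per cell in the first subset and 15732 in the last, and mitochondrial shares were between 13.1% and 14.7%; the part of depth in the result was not tested.

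**Figure D3:**
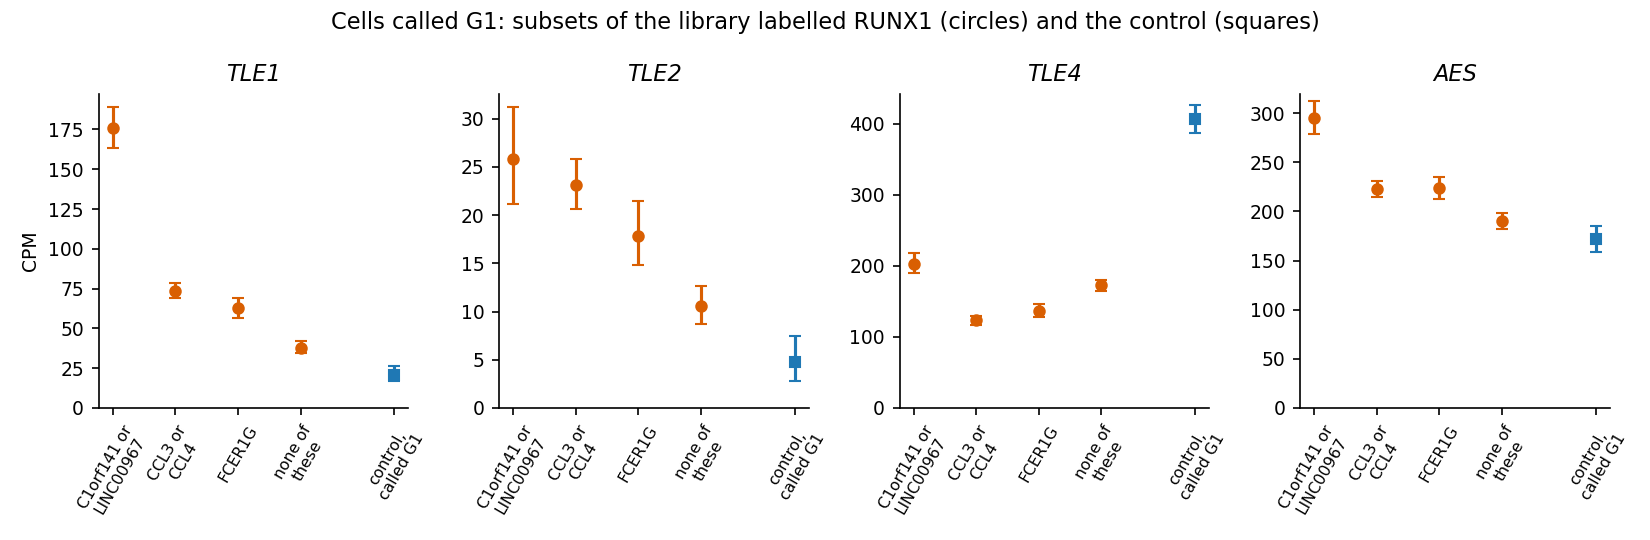
CPM (vertical axis, from 0, own scale in each panel) of the 4 genes in subsets of cells called G1 of the library labelled RUNX1 (orange circles), divided by UMIs of the genes named on the horizontal axis, and in control cells called G1 (blue squares); bars are exact Poisson 95% intervals. TLE1 is at 176 CPM in the first subset and 37.9 CPM in the last, and TLE4 is highest in the control at 406 CPM.

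RUNX1 and TLE proteins can act together, so cells with UMIs of both were counted in thinned cells and divided by the product of the separate shares; 1 is the value for unrelated detection. In the library labelled RUNX1 the ratio was 0.899 (0.777 to 1.03) for TLE1, 1.03 (0.836 to 1.26) for TLE2, 1.07 (0.981 to 1.16) for TLE4 and 0.962 (0.893 to 1.03) for AES. In the control it was 0.978 (0.855 to 1.11) for TLE1, 0.976 (0.795 to 1.18) for TLE2, 1.02 (0.981 to 1.06) for TLE4 and 0.980 (0.939 to 1.02) for AES. Every interval of this ratio held 1 in both libraries, and did so again within each state. The mean number of UMIs also counts how many a cell held. In the library labelled RUNX1, TLE4 had 1199 UMIs per 1000 thinned cells with a RUNX1 UMI and 1083 per 1000 without one. The log2 ratio of these means was 0.15 (0.04 to 0.25). In control cells TLE4 had 2233 with and 2046 without one (0.13, 0.07 to 0.18). AES was lower in control cells with a RUNX1 UMI (-0.08, -0.14 to -0.01), and its interval held 0 for the library labelled RUNX1 (-0.06, -0.14 to 0.03). For TLE1 and TLE2 the intervals held 0 in both libraries. These intervals count UMIs as independent, and TLE4 UMIs varied between cells by more than counting gives, so they are too narrow.

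Of the 6 pairs among the 4 genes, TLE1 and TLE2 had the highest such ratio in the library labelled RUNX1. Both had a UMI in 167 of 4188 thinned cells, 1.34 times (1.15 to 1.55) the product of the shares. Within cells called G1 the ratio was 1.32 (1.13 to 1.54), and in cells called S or G2/M it was 0.659 (0.361 to 1.10) from 14 cells. In the control it was 0.965 (0.642 to 1.39) from 28 cells. The control interval reaches past the value of the library labelled RUNX1, so a difference between libraries was not detectable at this depth.

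**Figure D4:**
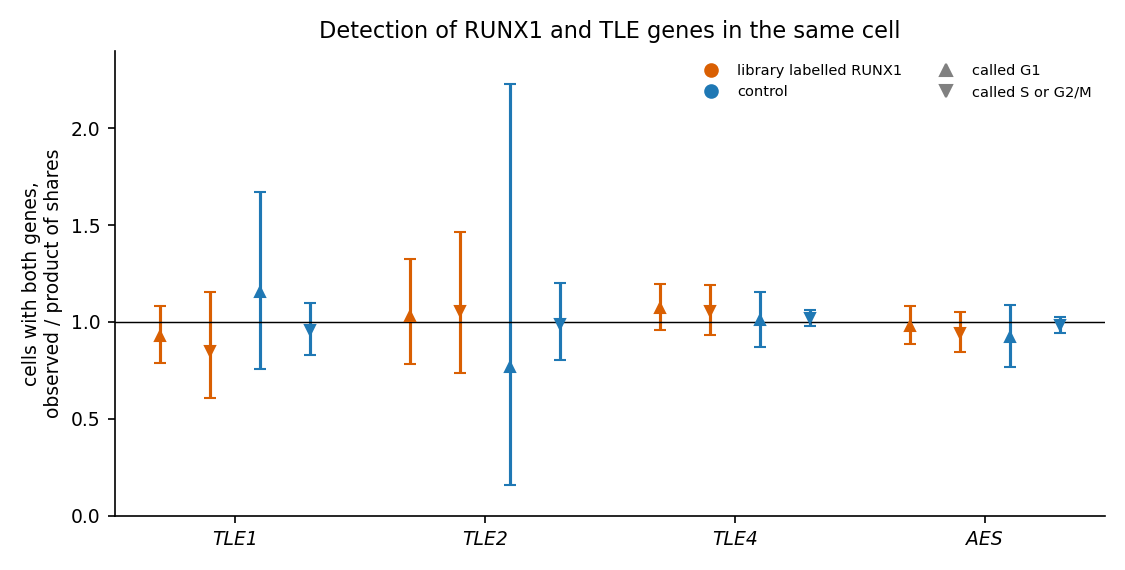
Cells with UMIs of both RUNX1 and a TLE gene divided by the product of the 2 shares (vertical axis) for the 4 genes (horizontal axis), orange for the library labelled RUNX1 and blue for the control; triangles point up for cells called G1 and down for cells called S or G2/M, bars are exact 95% intervals and the line marks 1. Each interval crosses the line, and the widest belongs to TLE2 in G1 of the control, with 3 cells. The intervals take the product of the shares as fixed.

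Of the 6 listed family genes 5 were measured, of which 3 were 2-fold or more higher and 0 lower in the library labelled RUNX1 (median log2 ratio 1.10), where 5.18% of all measured genes were that much higher and 4.10% lower. With TMM scaling 2 were higher and 1 (TLE4) lower. The list was chosen with results of these data known. TLE2 and TLE6 reached 10 CPM only in the library labelled RUNX1, where they were higher. Their entry through that library favours a higher count and a higher median. TLE6, known for a role in the egg and early embryo, was the third higher gene, with 961 UMIs (12.8 CPM) in the library labelled RUNX1 and 409 (5.40 CPM) in the control, a log2 ratio of 1.24 (1.07 to 1.41). TLE6 too was higher in cells called G1 of the library labelled RUNX1, at 17.5 CPM against 8.65 CPM in its cells called S or G2/M. TLE3, a full-length member, was listed at 0 UMIs in both libraries, and so was not compared. TLE1P1, a pseudogene with a sequence close to TLE1, had 2 UMIs in the library labelled RUNX1 and 1 in control cells.

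The DNA-binding partners of Groucho proteins were mostly not measured. Of 30 listed, 14 had 0 UMIs in both libraries and 7 were measured, with 0 past 2-fold higher, 1 lower (RUNX1) and a median log2 ratio of -0.28, against 5.18% of all measured genes higher and 4.10% lower, so with 7 genes these counts are near the background. PAX5, the B cell identity factor, was at 124 CPM in the library labelled RUNX1 and 151 CPM in the control (log2 ratio -0.28, -0.32 to -0.24). LEF1, which takes TLE proteins to Wnt targets, had a log2 ratio of -0.50 (-0.54 to -0.46), and HES6, which can antagonise HES1, 0.99 (0.89 to 1.09), just under 2-fold; 2 of the 3 other scalings put HES6 past 2-fold, at 1.12 with the median of ratios and 1.21 with totals that leave out mitochondrial and ribosomal protein genes. With those totals RUNX1 was within 2-fold, at -0.98.

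Cofactors of Groucho repression lay within 2-fold. Of 20 listed, 17 were measured, with 0 past 2-fold in either direction and a median of -0.26. With 5.18% of all measured genes that much higher and 4.10% lower, a count of 0 among 17 is near the background. The deacetylase HDAC1 had a log2 ratio of 0.0020 (-0.04 to 0.04), HDAC3 -0.11 and HDAC2 -0.53. The range ran between LDB1, a bridging cofactor, at 0.74 and CBFB, the partner subunit of RUNX proteins, at -0.90 (-0.97 to -0.82). CBFB thus had nearly the ratio of TLE4, and with TMM scaling it was past 2-fold at -1.03.

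Listed Wnt/TCF target genes and genes repressed by PAX5 were read next. Whether TLE proteins act at these genes was not tested. Of 15 Wnt/TCF targets 4 were measured, with 1 at least 2-fold higher, 0 lower and a median of -0.14, beside 5.18% of all measured genes higher and 4.10% lower. The higher gene was APCDD1, a Wnt inhibitor, at 53.7 CPM in the library labelled RUNX1 and 8.37 CPM in the control (log2 ratio 2.68, 2.56 to 2.81), whereas LGR5 had -0.03 (-0.10 to 0.03), LEF1 the value above and MYC -0.25 (-0.27 to -0.23). Of 7 genes repressed by PAX5 only CD28 and LMO2 were measured. APCDD1 and CD28 reached 10 CPM only in the library labelled RUNX1, where they were higher, which favours their count as higher. CD28, a costimulatory receptor of T cells, had 810 UMIs in the library labelled RUNX1 while the control had 0. With that 0 set to 3 UMIs, its log2 ratio was 8.08. LMO2, a regulator of blood progenitors, had 11.7 CPM in the library labelled RUNX1 and 36.8 CPM in the control (log2 ratio -1.65).

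**Figure D5:**
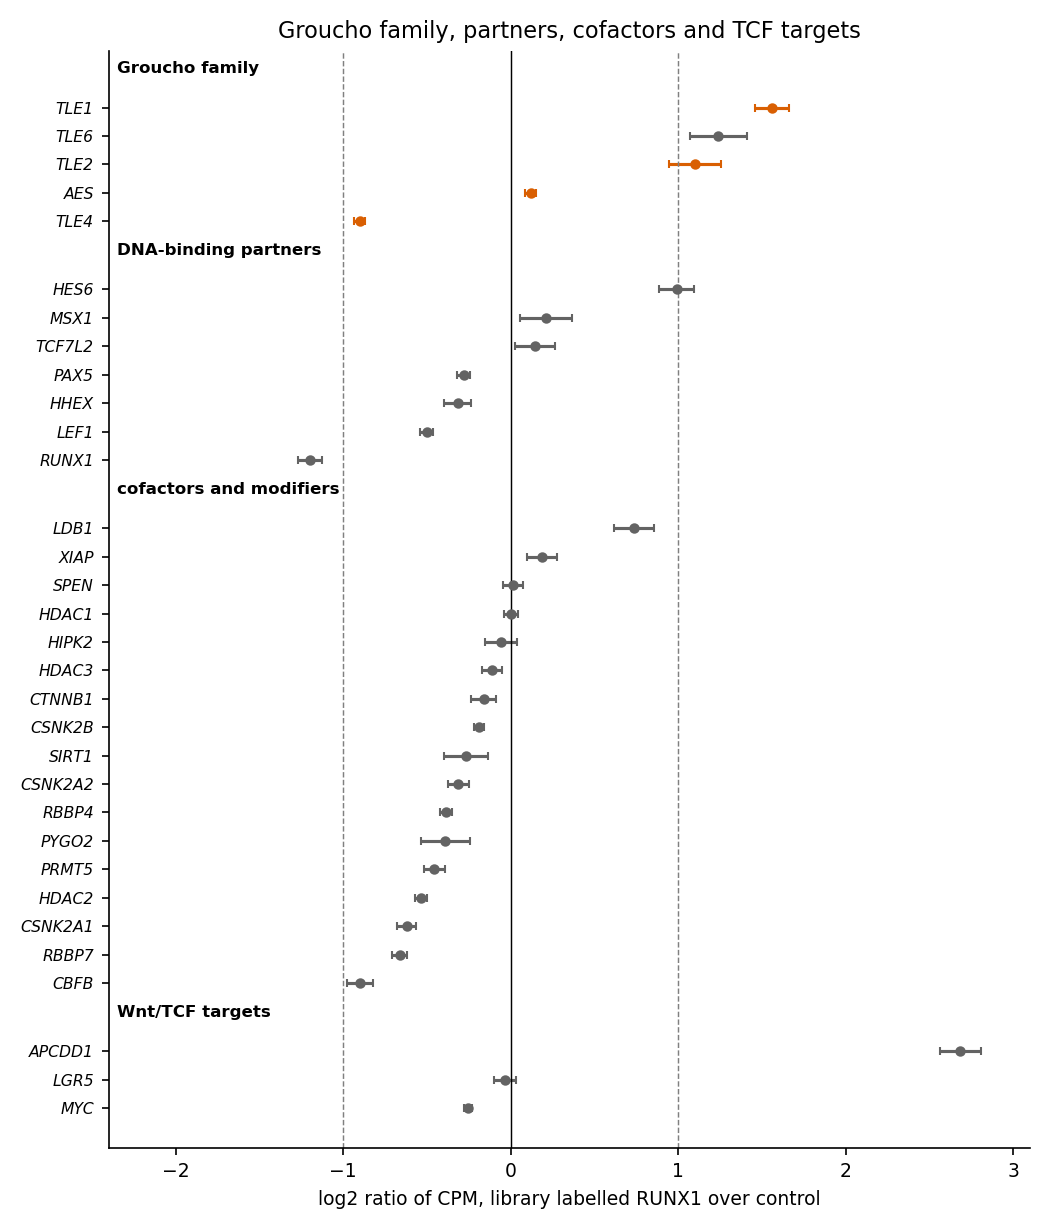
Log2 ratio of CPM (horizontal axis), library labelled RUNX1 over control, for the measured genes of 4 lists (rows), with exact 95% intervals; orange points are TLE1, TLE2, TLE4 and AES and dashed lines mark 2-fold. The family spans 1.56 for TLE1 to -0.90 for TLE4, whereas all 17 cofactors lie within 2-fold, which CBFB passes with TMM scaling.

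The genes most like each member were taken by Pearson's r of log2(CPM + 1) over the 6 groups of library and phase, among 7886 genes. These points share cells, libraries and depth, and many genes reach a high r over so few: 171 genes exceeded 0.95 for TLE1, 166 for TLE2, 85 for TLE4 and 37 for AES. Among the nearest to TLE1 were PIP5K1A (r = 0.996), NEU1 and ATP11A. For TLE2 they were TBCC (0.996), ELMOD3, RAB2B and KIAA1958, and for AES SETDB1 (0.992), PAOX, USP33 and ACSF3. TLE4 was most like HRSP12 (0.997), RIMKLB, SNHG8 and DESI1. SNHG8 was at 219, 212 and 180.0 CPM in G1, S and G2/M of the library labelled RUNX1. In the control SNHG8 was at 475, 374 and 306 CPM. Pearson's r ignores the size of a change. In G1, HRSP12 was at 36.6 CPM in the library labelled RUNX1 and 50.9 CPM in the control. PIP5K1A was at 24.4 CPM and 17.9 CPM there, against 73.0 CPM and 21.0 CPM for TLE1.

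The barcodes left out by the cell filter held the genes in the same order of libraries. TLE1 had 382 UMIs (62.4 CPM, 56.3 to 69.0) in the 691 left out of the library labelled RUNX1 and 42 UMIs (19.4 to 36.4 CPM) in the 475 of the control, and TLE4 was at 149.6 CPM in those of the library labelled RUNX1 and 302 CPM in those of the control. With all barcodes, with a mitochondrial limit of 10% or without the 5% of cells with the most UMIs, TLE1 and TLE2 stayed higher and TLE4 lower in the library labelled RUNX1, with TLE2 at a log2 ratio of 1.72 under the mitochondrial limit. That limit lies below the mitochondrial share of summed UMIs in the library labelled RUNX1 (13.1%) and above that in the control (9.45%). How many cells it kept is not given here, and it may cut the libraries unequally.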

How the data were processed

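Single-cell RNA-seq (10x Genomics 3' assay, version 3 chemistry) was analysed for 2 libraries of Nalm-6 cells. Reads had been counted by the authors as UMIs with Cell Ranger (version 3.0.2; hg19 and mm10 references, per the labels and methods), and the deposited values are raw counts with no normalization. The 10 ChIP-seq samples were not used.

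Cells with over 2000 and under 6000 genes and under 20% mitochondrial UMIs were kept. UMIs were summed over cells to give CPM. A gene was measured if either library held it at 10 CPM or above, no pseudocount was used in ratios, and 2-fold was the size that counts. With 1 library per group no test was made. The 95% intervals are exact: Poisson for CPM, Clopper-Pearson for shares and conditional binomial for ratios. Shares of cells used cells thinned to 8000 UMIs (seed 1). Doublets were not called, and the 5% of cells with the most UMIs were left out as an alternative. Phases were scored in scanpy 1.11.5 on counts scaled to 10000 per cell. The package edgeR (4.0.16, under R 4.3.3) served for TMM scaling alone. Scripts ran in Python 3.11.15 with pandas 2.3.3, scipy 1.17.1 and numpy 2.4.6. Positions are from GENCODE v44lift37 by Ensembl identifier. Other settings of thinning, phase, gene floor, scaling and cell filter were tried.

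The members, gene lists and subsets were chosen with earlier results of these data known. The genes named are the 4 members, RUNX1, measured genes of the 5 lists (family, DNA-binding partners, cofactors, Wnt/TCF targets and PAX5-repressed genes), and the 4 genes most like each member. On simulated counts for the 7980 genes of this comparison, all 100 genes changed 4-fold passed 2-fold, 0 of 100 changed 1.5-fold did, and 95.3% of intervals held the true ratio. The simulated counts followed the Poisson model on which the intervals rest, so this share was set by the design. Spread between cells and between cultures was not simulated, so how the intervals cover it was not tested.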

Additional observations from a re-analysis of the deposited data

Results flagged for a closer look

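TLE2 and AES had ratios between states of opposite sign in the libraries, above 0 for the library labelled RUNX1 and below 0 for the control. For TLE2 the log2 ratio of cells called G1 over cells called S or G2/M was 0.80 (0.62 to 0.98) in the library labelled RUNX1 and -0.53 (-1.30 to 0.15) in the control, the second from 18 UMIs in cells called G1 and with an interval that holds 0. For AES it was 0.10 (0.05 to 0.14) in the library labelled RUNX1 and -0.20 (-0.32 to -0.09) in the control, which turned to 0.0067 (-0.17 to 0.18) with a mitochondrial limit of 10%. With 1 library per group, neither difference was tested. In the control TLE2 was under 10 CPM in both states.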

How the results depend on the processing

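With 1 library per group, no value has a replicate check, and the cells called G1 in the control (361) limit the values in that state. No paired analysis was possible because each single-cell group has 1 library, and the replicate numbers in the labels belong to ChIP-seq samples. For the ratios between libraries, 28 of 40 alternatives moved the value beyond its counting interval, 11 did not, and 1 turned its direction. TLE1 had a log2 ratio of 1.79 with a mitochondrial limit of 10%, 1.43 with TMM, 1.69 with the median of ratios, 1.78 with totals that leave out mitochondrial and ribosomal protein genes (free totals), 1.95 with equal weight for each cell, 1.80 in cells called G1, 0.31 in those called S or G2/M and 0.49 at the phase mix of the control (added after seeing the data, as below). In the same settings TLE2 had 1.72 at the mitochondrial limit, 1.32 with the free totals, 1.35 with equal weight, 1.98 in G1, 0.65 in S or G2/M and 0.71 at the phase mix. TLE4 had -0.76 at the mitochondrial limit, -1.03 with TMM, -0.77 with the median of ratios, -0.69 with the free totals, -1.44 in G1, -0.98 in S or G2/M and -1.01 at the phase mix. AES had 0.28, 0.25, 0.34 and 0.18 at the mitochondrial limit, with the median of ratios, the free totals and equal weight, 0.37 in G1, 0.065 in S or G2/M, 0.072 at the phase mix, and turned to -0.0070 with TMM.

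Genes past 2-fold numbered 740, but 1182 with equal weight, 1280 in G1, 245 in S or G2/M, 262 at the phase mix and 2110 at a floor of 1 CPM. Of them 55.8% were higher, against 39.3% with TMM, 73.3% with the median of ratios, 84.0% with the free totals and 70.5% at the mitochondrial limit, where the all-gene median was -0.26 with TMM, 0.013 with the median of ratios, 0.14 with the free totals and -0.0054 at the mitochondrial limit. Between states (G1 over S or G2/M) of the library labelled RUNX1, TLE1 had 1.84 with calls on thinned cells and 2.36 at the mitochondrial limit, TLE2 0.60 and 1.26, AES 0.036 and 0.20, and TLE4 0.19 at that limit. In the control AES turned to 0.0067 at the limit. Co-detection with RUNX1 moved in G1 of the control alone, to 1.15 for TLE1, 0.770 for TLE2 and 0.924 for AES. The causes were not tested.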
